A study of Mus musculus with 40 samples.

Results

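The genes described here encode the machinery of the mature skeletal muscle fibre, and they were measured in brown adipose tissue, the heat-producing fat of the mouse. They are 40 genes of the 52636 in the deposited count table, named for their place in the sarcomere, in the coupling of excitation to contraction or in the metabolism of the fibre. All 40 were found through their Ensembl identifiers. All 40 also passed the filter on low counts, which kept 17079 genes. That filter keeps a gene that is high in 1 group, so the number passing is no result. The tissue came from male C57BL/6 mice with no transgene, 10 to 12 weeks old by the series' design and 10 to 14 weeks old by its protocol, each injected once into the peritoneum. The control injection was an anti-ragweed isotype antibody at 40 mg/kg, and these mice are numbered 1 to 5. Jag antibody mice received anti-Jag1 and anti-Jag2, which block a pair of Notch ligands, at 20 mg/kg each and are numbered 6 to 10. Tissue was taken after 15 h, 5 d or 7 d, with 5 mice per antibody at each time. Further groups of 5 mice per antibody were taken at 7 d after daily T4 (1 ug per g body weight) and T3 (0.05 ug per g) from day 2, both forms of thyroid hormone. Each numbered library is taken as 1 mouse, and p-values measure the spread between these libraries. The numbers recur in each time and hormone group, and the same number in another group is taken as another mouse.

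A muscle fibre shortens when myosin heads of the thick filament pull on actin of the thin filament. Troponin and tropomyosin on the thin filament gate this step, and calcium released from the sarcoplasmic reticulum opens it. Fast and slow fibres use different isoforms of myosin, troponin and the myosin light chains, and they differ in their supply of glycogen, creatine phosphate and oxygen. Brown fat lies against skeletal muscle in the mouse, and brown adipocytes share an embryonic lineage with muscle, but they do not build sarcomeres.

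The libraries held 12217623 to 36511893 counts. Genes of brown adipocytes were counted in every library: Ucp1, the uncoupling protein that produces heat, had at least 12504 counts and reached 14598 CPM (its count relative to library size), and Fabp4, a fatty acid carrier, had at least 134291 counts. The fibre genes, in contrast, took anything from 0.00604% to 19.2% of a library's counts, a 3186-fold range. They exceeded 1% in 8 libraries and stayed under 0.02% in 19. The library of control mouse 5 at 5 d (19.2%) and that of Jag antibody mouse 6 at 7 d (9.04%) stood furthest apart. The counts of calls and the correlations that rest on them are given below with and without them. In bulk tissue, fewer muscle fibres and less fibre RNA per cell cannot be told apart.

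At 15 h the fibre genes took 0.00733%, 0.00604%, 0.00747%, 0.236% and 2.16% of counts in control mice 1 to 5. In Jag antibody mice 6 to 10 they took 0.410%, 0.265%, 0.00705%, 0.00694% and 0.130%. Both groups at 15 h thus held libraries near 0.007% beside libraries at 0.130% or more, and they overlapped. At 5 d the shares were 0.555%, 0.133%, 4.84%, 4.004% and 19.2% in control mice and 0.0133%, 0.0154%, 0.00691%, 0.00892% and 0.00673% in Jag antibody mice. Every control mouse at 5 d lay above every Jag antibody mouse, and it was the only time at which the groups did not overlap. At 7 d the shares were 0.00855%, 0.0113%, 0.00958%, 0.192% and 3.32% in control mice and 9.04%, 0.0150%, 0.0354%, 0.102% and 0.0242% in Jag antibody mice. With T3/T4 they were 0.00868%, 0.109%, 2.69%, 0.00813% and 1.28% in control mice and 0.838%, 0.162%, 0.0109%, 0.00822% and 0.00939% in Jag antibody mice. These pairs of groups overlapped again, with at least 1 mouse at 0.838% or more and at least 1 at 0.0150% or less in each group.

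**Figure D1:**
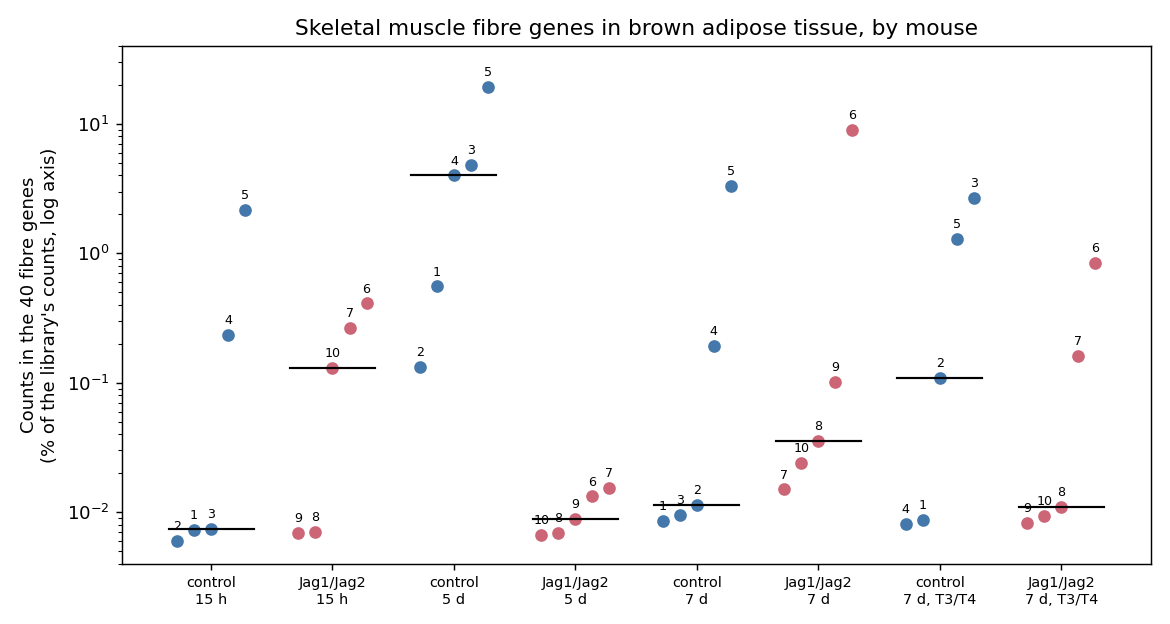
Share of each library's counts that fell in the 40 fibre genes (vertical axis, %, log scale) for the 8 groups of 5 mice (blue, control antibody; red, Jag1/Jag2 antibodies). Points are mice, labelled with their number, and the black bar is the group median. The control group at 5 d has a median of 4.004% and lies wholly above the Jag antibody group at 5 d, whose highest mouse is at 0.0154%.

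Acta1, the actin of the skeletal muscle thin filament, is an example of this pattern. It had 18, 7, 7, 4967 and 50737 counts in control mice at 15 h and 8138, 5247, 4, 15 and 2882 in Jag antibody mice. At 5 d it had 17594, 9157, 253353, 261810 and 618320 counts in control mice against 75, 212, 2, 22 and 41 in Jag antibody mice. At 7 d the counts were 37, 42, 22, 2083 and 97700 in control mice and 238449, 79, 1045, 2119 and 298 in Jag antibody mice. Libraries with few Acta1 reads therefore occurred in every group except the control group at 5 d. With T3/T4 the counts were 5, 2603, 70727, 22 and 35340 in control mice and 9988, 4971, 44, 53 and 6 in Jag antibody mice. The level of Acta1 ran from 0.0916 CPM in Jag antibody mouse 8 at 5 d to 38085 CPM in control mouse 5 at 5 d.

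The upstream sequence of the genes is shown for 3 members that moved together over the whole range. It is also shown for 2 (Myl1 and Eno3) that varied with the others but never went under 1 CPM. Each run is the 250 bases before the first listed start of the gene in RefSeq on GRCm38.p6, 5′ to 3′ on the gene's strand. That start can lie inside the gene as GENCODE draws it. The runs of Ckm (gene at chr7:19404776-19422841) and Myl1 (gene at chr1:66924295-66945404) lie inside the gene. The same holds for some of the other members counted below, such as Tnni1. Capitals mark every match to CAGCTG (an E-box that the muscle regulators of the MyoD family can bind), to TATAAA on either strand (TTTATA is its reverse) and to the CArG box, the site of serum response factor. Acta1 lies at chr8:123894776-123895025 on the minus strand, Myh4 (the IIB myosin of the fastest fibres) at chr11:67237562-67237811 on the plus strand and Ckm (muscle creatine kinase) at chr7:19410844-19411093 on the plus strand. Myl1 lies at chr1:66945057-66945306 on the minus strand and Eno3 at chr11:70656926-70657175 on the plus strand.
Acta1: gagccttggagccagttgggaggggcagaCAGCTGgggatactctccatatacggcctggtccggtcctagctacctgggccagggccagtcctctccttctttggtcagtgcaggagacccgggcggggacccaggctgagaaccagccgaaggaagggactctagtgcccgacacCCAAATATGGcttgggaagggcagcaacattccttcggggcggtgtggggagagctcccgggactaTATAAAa
Myh4: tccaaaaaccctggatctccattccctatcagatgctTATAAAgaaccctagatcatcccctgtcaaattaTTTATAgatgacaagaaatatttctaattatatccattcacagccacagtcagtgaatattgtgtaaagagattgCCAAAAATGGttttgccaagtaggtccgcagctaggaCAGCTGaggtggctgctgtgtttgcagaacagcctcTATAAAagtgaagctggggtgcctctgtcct
Ckm: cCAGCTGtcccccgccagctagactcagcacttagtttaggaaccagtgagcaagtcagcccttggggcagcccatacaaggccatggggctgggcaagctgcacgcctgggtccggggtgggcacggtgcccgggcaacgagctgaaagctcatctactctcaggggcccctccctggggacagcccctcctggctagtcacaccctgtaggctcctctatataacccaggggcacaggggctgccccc
Myl1: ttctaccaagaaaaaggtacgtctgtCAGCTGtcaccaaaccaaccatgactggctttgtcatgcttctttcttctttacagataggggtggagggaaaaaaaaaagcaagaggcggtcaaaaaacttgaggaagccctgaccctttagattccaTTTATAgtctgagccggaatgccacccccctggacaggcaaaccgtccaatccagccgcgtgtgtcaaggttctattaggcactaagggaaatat
Eno3: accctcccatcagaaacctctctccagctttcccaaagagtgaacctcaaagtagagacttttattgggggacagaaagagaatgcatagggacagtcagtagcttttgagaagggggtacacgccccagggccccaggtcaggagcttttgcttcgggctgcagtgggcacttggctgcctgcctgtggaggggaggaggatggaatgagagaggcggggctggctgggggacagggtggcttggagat
Acta1 and Myh4 hold both a CAGCTG and a CArG box, at positions -221 and -73 in Acta1 and at -67 and -104 in Myh4. Positions are counted back from the start used to the first base of the match. Ckm holds a CAGCTG at -249. Eno3 holds none of the motifs searched, but Myl1, which also never went under 1 CPM, holds a CAGCTG at -224. The upstream sequence was found for 30 of the 40 genes, and 12 of these 30 (40.0%) hold CAGCTG, against 12.8% of 27025 gene starts over the same length. The CArG box was found in 4 of the 30 against 1.40% of all starts, TATAAA in 5 against 12.97%, the MEF2 site in 1 (Ttn) against 0.518%, and CACGTG, an E-box of another type, in 1 against 6.05%. Both strands were searched, and a match describes the letters only.

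The contractile genes reached the highest levels per length. In control mouse 5 at 5 d, Mylpf, the regulatory light chain of fast myosin, had 32379 CPM per kb of exon. Acta1 followed with 26338, Tnnt3, the fast fibre troponin T, with 21435 and Tnni2, the fast fibre troponin I, with 17675 CPM per kb. In Jag antibody mouse 6 at 7 d the order was Tnnt3 at 9103, Acta1 at 7462, Tnni2 at 5926 and Mylpf at 3756 CPM per kb. These 2 libraries held the highest level of 39 of the 40 genes, 19 in the former and 20 in the latter. The exception was Myh1, the IIX myosin, whose highest value was in control mouse 3 with T3/T4 at 7 d, with 20129 counts.

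The 40 genes were high and low in the same libraries. Over the 40 libraries, the Spearman correlation of 2 members had a median of 0.887 over the 780 pairs. The closest pair was Acta1 with Tnnt3 (0.980) and the loosest Myl3, a light chain of slow and cardiac myosin, with Mybpc2, the fast myosin-binding protein C (0.590). Against the mean of the other members, Ckm had the highest correlation (0.981) and Myl3 the lowest (0.714), followed by the Z-disc protein Ldb3 (0.792) and the thin filament ruler Neb (0.794). All members come from the same 40 libraries, so these values are given as a description. Without control mouse 5 at 5 d and Jag antibody mouse 6 at 7 d, the median over the pairs was 0.870 and the range 0.522 to 0.976.

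**Figure D2:**
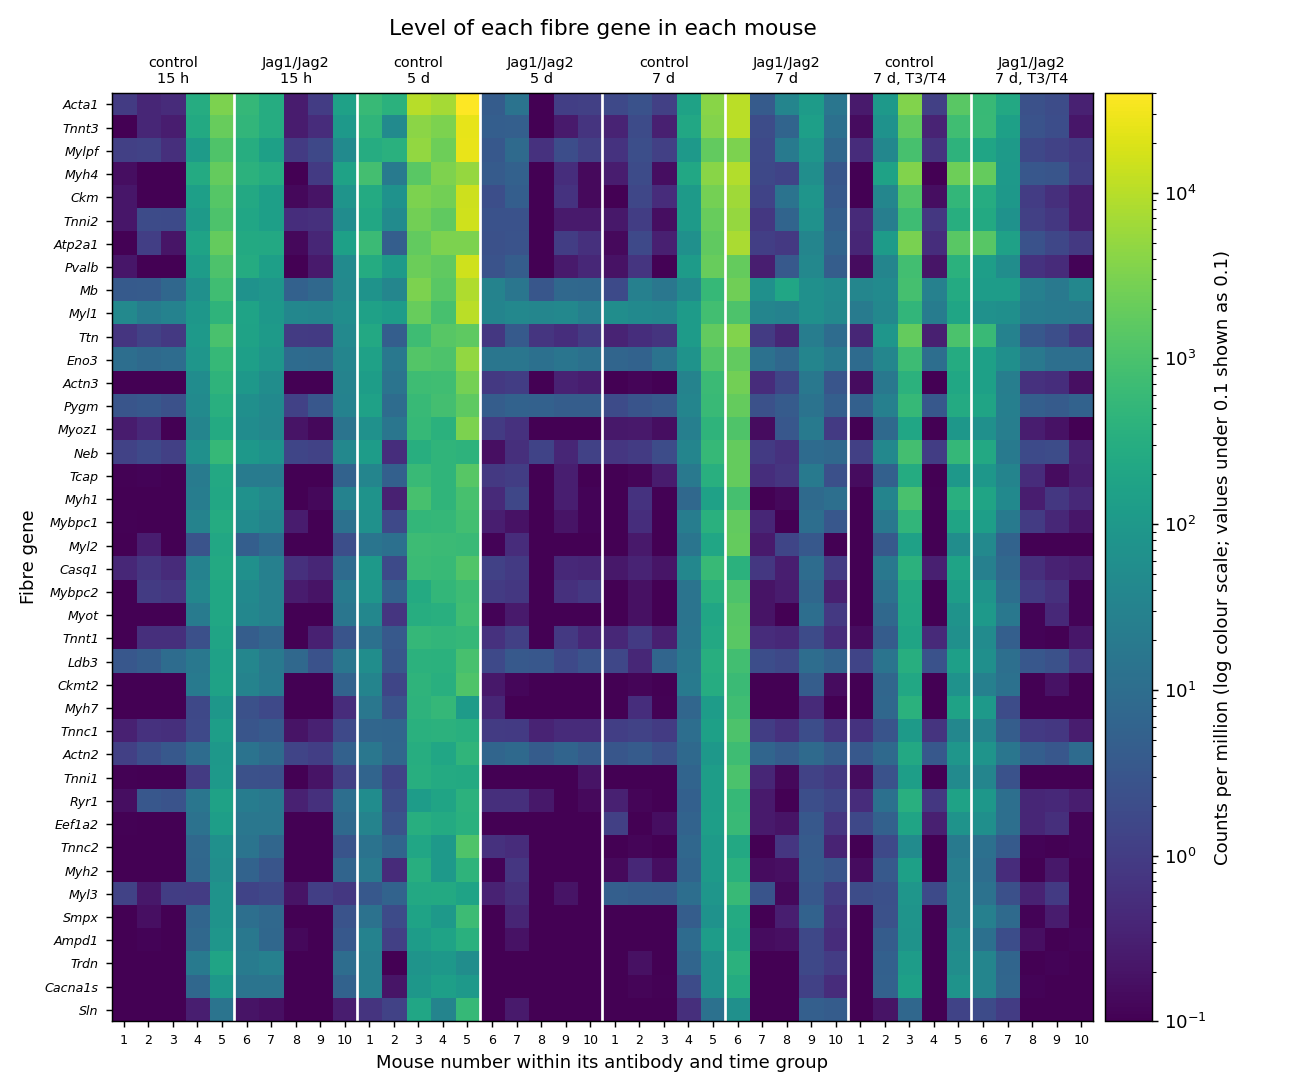
Level of each of the 40 fibre genes (rows, ordered by mean level) in each of the 40 libraries (columns, grouped by antibody, time and hormone), in CPM on a log colour scale. Bright columns are libraries in which nearly all genes are high together, such as control mouse 5 at 5 d, and the rows of Myl1, Mb and Eno3 keep colour in the dark columns.

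Only 13 of the 40 genes were counted in every library, and 27 had 0 counts in at least 1. Sln, which encodes sarcolipin, a small inhibitor of the calcium pump, was at 0 in 19 libraries. Trdn (triadin, which anchors the calcium release complex) was at 0 in 13, and both Myh7, the slow myosin, and Cacna1s, the voltage sensor of the fibre membrane, in 12. At the other end, 5 genes never went under 1 CPM. Their lowest levels were 18.3 CPM for Myl1 (an alkali light chain of fast myosin), 5.84 for Eno3 (the muscle form of enolase, in glycolysis), 1.85 for Mb (myoglobin, which stores oxygen), 1.19 for Pygm (muscle glycogen phosphorylase) and 1.10 for Actn2 (the alpha-actinin of the Z-disc). Per length, Myl1 was the highest member in 14 libraries, Acta1 in 9, Tnnt3 in 8, Mb in 7 and Mylpf in 2. In control mouse 1 at 15 h, for example, Myl1 had 29.5 CPM per kb, Eno3 6.64, Mb 2.71 and Acta1 0.664.

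Mb varied on its own in libraries with little other fibre RNA. At 7 d it had 40, 457, 313, 580 and 13854 counts in control mice and 53899, 1319, 6203, 1143 and 958 in Jag antibody mice. In Jag antibody mouse 8 at 7 d there were 594 Mb counts for every 100 of Acta1, and in mouse 10 of that group 321, whereas control mice 1 to 5 at 5 d had 12.999, 9.94, 30.6, 20.3 and 22.8. With T3/T4 at 7 d Mb had 717, 1218, 18019, 539 and 6475 counts in control mice and 2099, 2614, 484, 486 and 720 in Jag antibody mice. In control mice at 7 d the lowest Mb count was 40 without hormone and 539 with it. In Jag antibody mice at 7 d the order was the opposite, with 958 without hormone and 484 with it. No difference in Mb passed the test in either hormone comparison.

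The clearest comparison was that of the antibodies at 5 d. In edgeR's quasi-likelihood test with Benjamini-Hochberg adjustment, 34 of the 40 genes fell in Jag antibody mice and none rose, at an adjusted p under 0.05. Of all genes tested, 5.93% fell by this rule. The median log2 fold change of the 40 genes was -10.98, against 0.04 over all genes tested. It includes genes with almost no reads in Jag antibody mice, such as Cacna1s with 0, 1, 0, 1 and 0 counts. The size of this median, and of others that involve this group, is therefore not a stable fold. For 34 genes (not the same 34) every Jag antibody mouse was below every control mouse, which held for 3.16% of all genes tested. The genes that were not called were Myh4, Atp2a1 (the calcium pump of fast fibres), Ttn (titin), Neb, Mybpc2 and Trdn, with adjusted p-values of 0.0779, 0.0607, 0.0604, 0.0518, 0.0517 and 0.0552 by edgeR. All 6 had negative estimates, from -8.56 (Neb) to -10.50 (Atp2a1) without Trdn, which had too few reads in Jag antibody mice for a fold to be stated.

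Myl1 had the lowest adjusted p. It had 4845, 3127, 51426, 33942 and 174803 counts in control mice and 594, 649, 816, 843 and 941 in Jag antibody mice at 5 d. Its log2 fold change was -6.63 (SE 1.42, edgeR adjusted p = 0.00656). The groups did not overlap, and the Jag antibody mice were close together. Sln had 21, 31, 5096, 1219 and 8990 counts in control mice against 0, 4, 0, 0 and 0 in Jag antibody mice (edgeR adjusted p = 0.00934). Mb had 2287, 910, 77616, 53090 and 141262 counts against 556, 246, 69, 155 and 263, a log2 fold change of -7.99 (SE 1.95, edgeR adjusted p = 0.0122). Myl3 had 105, 150, 5990, 9327 and 2819 counts against 6, 9, 0, 4 and 3, a log2 fold change of -9.36 (SE 2.34, edgeR adjusted p = 0.0142).

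The genes with the largest estimates were Eef1a2, Ckmt2 and Tnni2. Eef1a2, a translation elongation factor of muscle and neurons, had 930, 68, 8293, 9683 and 5706 counts in control mice and 0, 0, 0, 0 and 1 in Jag antibody mice (edgeR adjusted p = 0.0252). With so few reads in the second group its fold is not stated. Ckmt2, the mitochondrial creatine kinase of the sarcomere, had 1010, 37, 11285, 12446 and 18687 counts against 4, 2, 0, 1 and 2 (edgeR adjusted p = 0.0329), and its fold is not stated for the same reason. Tnni2 had 6804, 1214, 64048, 61983 and 249940 counts against 44, 42, 2, 5 and 9, a log2 fold change of -12.19 (SE 3.53, edgeR adjusted p = 0.0309). Control mouse 2 was the lowest control in each of these genes, and yet it lay above every Jag antibody mouse.

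The thick filament genes followed the same pattern at 5 d. Mylpf had 8698, 8668, 123196, 86579 and 430532 counts in control mice and 62, 140, 14, 42 and 41 in Jag antibody mice. Myh4 had 25582, 464, 37279, 120525 and 84164 against 70, 87, 0, 11 and 5, without overlap although it missed the threshold. The myosins Myh1 and Myh2 overlapped through control mouse 2, which had 8 and 12 counts where Jag antibody mouse 7 had 25 and 12. Myh7 had 490, 68, 10539, 19212 and 1906 counts against 7, 0, 1, 1 and 0, and Ttn had 7201, 116, 18365, 50193 and 25931 against 14, 62, 16, 11 and 34.

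On the thin filament, Tnnt3 had 13458, 1188, 105347, 113158 and 405779 counts in control mice at 5 d and 82, 79, 0, 5 and 25 in Jag antibody mice. Its slow counterpart Tnnt1 had 369, 90, 13222, 18155 and 8692 against 11, 18, 2, 17 and 15. Tnni1, the slow troponin I, had 194, 33, 8224, 9605 and 4173 against 0, 1, 0, 1 and 7. Fast and slow troponins were thus both higher in every control mouse.

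Of the calcium handling genes, Atp2a1 and Trdn were not called at 5 d, and Trdn overlapped between the groups. Atp2a1 had 19362, 114, 45713, 112807 and 51985 counts in control mice at 5 d and 43, 44, 1, 21 and 21 in Jag antibody mice. Ryr1, the calcium release channel, had 1592, 49, 3187, 6885 and 6536 against 10, 9, 5, 2 and 5, a log2 fold change of -9.23 (SE 2.82, edgeR adjusted p = 0.0390). Pvalb (parvalbumin, a calcium buffer of fast fibres) had 8137, 2750, 55685, 62335 and 255971 against 48, 71, 1, 5 and 15. Of the energy genes, Ckm had 7857, 1725, 78070, 96090 and 240963 counts against 39, 77, 0, 13 and 5. Casq1 (the calcium store of the reticulum), Tcap, Myoz1, Myot and Smpx (proteins of the Z-disc and its surroundings), Ampd1 (the AMP deaminase of muscle) and Pygm fell too. For Pygm, the best counted of them in Jag antibody mice, the log2 fold change was -7.27.

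The number of calls at 5 d rests on few mice. It was 4 without control mouse 5, 16 without control mouse 3, 10 without Jag antibody mouse 7 and 4 without any 1 of Jag antibody mice 6, 8, 9 or 10. Without control mice 2 and 5 together it was 5, with limma voom 2, with no filter on low counts 7 and with DESeq2 40. Mb and Myl1 were called in all 17 alternatives, and Sln and Myl3 in 16, the exception being limma voom. All 34 genes kept a negative fold change in every alternative. Other measures of the libraries moved with the groups at 5 d: mitochondrial genes took 9.72% to 15.5% of counts in control mice and 15.5% to 22.2% in Jag antibody mice. The summed level of 10 brown adipocyte genes ran from 16735 to 32288 CPM in control mice and from 20267 to 32806 CPM in Jag antibody mice. Their part in the result was not tested.

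**Figure D3:**
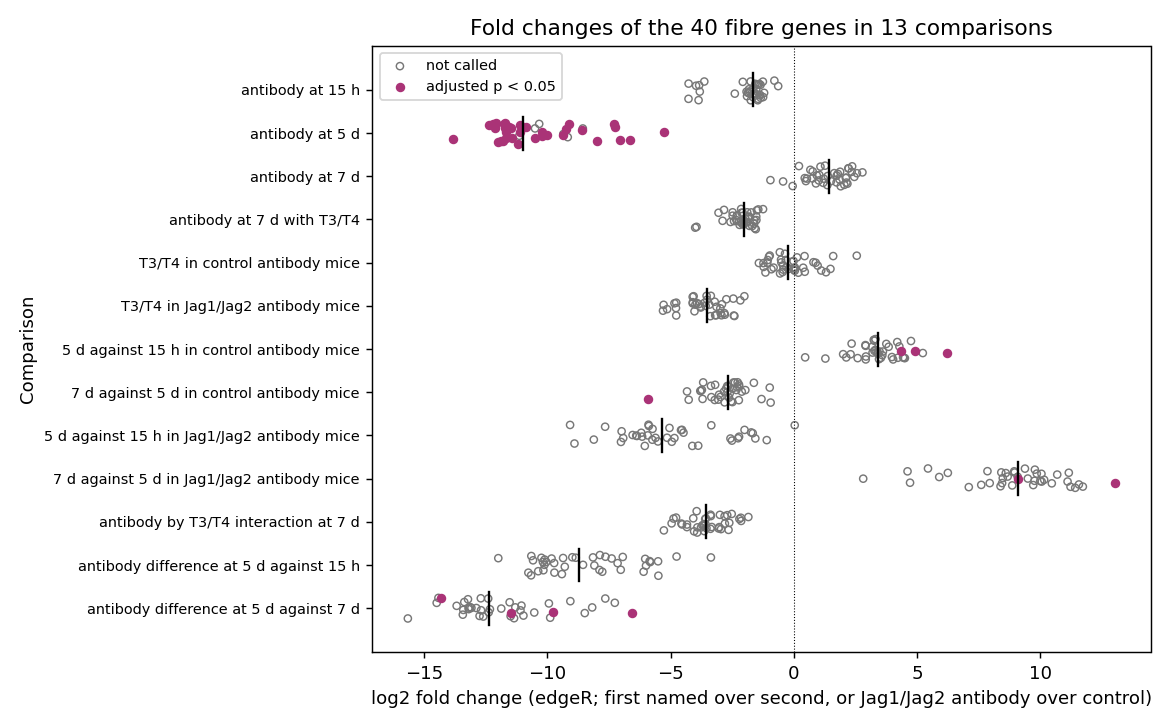
Log2 fold changes (horizontal axis, edgeR) of the 40 fibre genes in the 10 comparisons of groups and 3 interactions (rows). Each circle is a gene, filled where the adjusted p is under 0.05, and the black bar is the median of the 40 genes. At 5 d 34 genes are filled, all to the left of 0, and in 8 of the other 12 rows none is filled.

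At the other times no member was called between the antibodies. Of all 17079 genes, 2052 had an unadjusted edgeR p under 0.05 at 15 h, 3504 at 7 d and 2026 at 7 d with T3/T4. At 15 h edgeR called 0 of the 40 genes (1 at an unadjusted p under 0.05, and 0 adjusted with limma voom or DESeq2), where 1.14% of all genes were called. The median log2 fold change of the members was -1.65. At 7 d edgeR called 0 (0 unadjusted, and 0 with either other tool), against 2.5% of all genes, and the median was 1.44. With T3/T4 at 7 d edgeR called 0 (0 unadjusted, and 0 with either other tool), against 1.14% of all genes, and the median was -2.02. For Acta1 the estimates were -1.75 (SE 2.35) at 15 h, 1.08 (SE 2.31) at 7 d and -2.48 (SE 2.41) with T3/T4. Standard errors of this size leave changes of many fold undetectable. The sign at 7 d came from Jag antibody mouse 6: without it the log2 fold change of Acta1 was -4.28. At 15 h it came from control mouse 5, without which it was 1.40.

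Whether the antibody difference itself changed between times was tested by interaction. Between 5 d and 7 d it differed for 4 genes, all lower at 5 d, against 1.17% of all genes in that direction. These were Sln (edgeR adjusted p = 0.0326), Myl3 (log2 difference -11.48, SE 2.81, adjusted p = 0.0405), Mb (-9.78, SE 2.39, adjusted p = 0.0405) and Myl1 (-6.58, SE 1.72, adjusted p = 0.0470). All 40 had an unadjusted p under 0.05, as did 2844 of all 17079 genes tested. The 4 calls became 0 with limma voom, 40 with DESeq2 and 20 without control mice 2 and 5 at 5 d. When 1 mouse was left out they ran from 0 (for example without Jag antibody mouse 6 at 7 d) to 37 (without control mouse 5 at 7 d). Between 5 d and 15 h edgeR called 0 members, where 0.0995% of all genes were called. At an unadjusted p under 0.05 there were 33 members and 2493 of all 17079 genes. With limma voom 0 members were called and with DESeq2 18. The median of the members was -8.70.

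Across time in control mice, 3 genes rose from 15 h to 5 d, where 16.2% of all genes did. Sln had 0, 0, 0, 5 and 226 counts at 15 h and 21 to 8990 at 5 d (log2 fold change 6.20, SE 1.97, edgeR adjusted p = 0.0154). Myl1 had 816, 390, 429, 1556 and 7287 counts at 15 h and 3127 to 174803 at 5 d (4.90, SE 1.31, edgeR adjusted p = 0.00514). Mb had 72, 73, 103, 1083 and 12372 counts at 15 h and 910 to 141262 at 5 d (4.37, SE 1.65, edgeR adjusted p = 0.0372). All 3 had overlapping groups, through control mouse 5 at 15 h and, for Mb, control mouse 4 as well. The count became 18 without that mouse and 0 without control mouse 5 at 5 d, and it was 0 when only the groups compared were fitted, 16 with limma voom and 11 with DESeq2. From 5 d to 7 d only Sln fell by edgeR (0, 0, 0, 7 and 296 counts at 7 d, log2 fold change -5.93, SE 1.94, adjusted p = 0.0494), where 4.42% of all genes fell. That call was lost with limma voom, and the count was 0 to 3 when 1 mouse was left out, with 0 for control mouse 5 at 5 d and 3 for control mouse 5 at 7 d.

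In Jag antibody mice edgeR called 0 members from 15 h to 5 d, against 14.5% of all genes, with a median log2 fold change of -5.33. At an unadjusted p under 0.05 there were 17 members and 5294 of all 17079 genes. With limma voom 0 members were called and with DESeq2 22. From 5 d to 7 d 2 rose by edgeR, against 2.01% of all genes. The median log2 fold change was 9.09. All 40 had an unadjusted p under 0.05, as did 3078 of all 17079 genes tested. Myl3 had 13373, 58, 4, 60 and 19 counts at 7 d after its 0 to 9 at 5 d (log2 fold change 9.10, SE 2.33, edgeR adjusted p = 0.0269). Eef1a2 had 14166, 5, 6, 63 and 15 counts at 7 d after its single read at 5 d (edgeR adjusted p = 0.0484). Jag antibody mouse 6 at 7 d carried most of these counts. Without it the count of calls was 0, as it was without any 1 of the 5 d mice, and it was 0 with limma voom and 39 with DESeq2.

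Thyroid hormone left the members without a call. In control mice edgeR called 0 (0 unadjusted, and 0 with limma voom or DESeq2), although 43.2% of all genes were called, and the members' median log2 fold change was -0.25. For Acta1 the estimate was -0.21 (SE 2.28), and its sign turned in several alternatives, for instance to 3.61 without control mouse 5 at 7 d. In Jag antibody mice edgeR called 0 (6 unadjusted, 0 with limma voom and 3 with DESeq2), against 9.5% of all genes, with a median of -3.53. Without Jag antibody mouse 6 at 7 d the estimate of Acta1 went from -3.78 (SE 2.55) to 1.59. The antibody by hormone interaction called 0 members (1 unadjusted, and 0 with either other tool), against 0.00586% of all genes. Unadjusted edgeR p-values under 0.05 were found for 8655 of all 17079 genes in control mice, 4603 in Jag antibody mice and 2103 for the interaction.

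Where enough fibre RNA was present, the shares of slow and fast isoforms could be compared within each family. Over the 22 libraries with at least 100 counts of the 4 adult myosin heavy chains, Myh4 took a median of 81.7% of them, Myh1 12.4%, Myh2 (the IIA myosin) 2.55% and Myh7 2.26%. These genes have nearly equal exonic lengths (6016 to 6313 bases), so the shares compare levels. Myh4 was the largest in 21 libraries. The exception was Jag antibody mouse 10 at 7 d, in which Myh1 had 211 of 328 counts (64.3%, 95% Wilson interval 59.0% to 69.3%) and Myh4 59 (17.99%, 14.2% to 22.5%). Control mouse 3 at 5 d also had a mixed pattern, with 46.9% Myh4, 29.6% Myh1, 10.3% Myh2 and 13.2% Myh7. Such intervals cover counting error only. Myh1, Myh2 and Myh4 lie next to each other on chromosome 11 and are close in sequence, so reads shared between them could have been split by the counting.

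The shares of the slow troponins were high and low in much the same libraries. Tnni1 took 0.806% to 16.5% of the troponin I counts over 21 libraries (median 5.30%), and Tnnt1 0.894% to 13.8% of the troponin T counts (median 6.13%). Tnnc1, the troponin C of slow and cardiac muscle, took 17.0% to 82.4% of the counts it shares with the fast Tnnc2 over 18 libraries (median 57.5%). This median is far above those of Tnni1, Tnnt1 and Myh7 (2.26% of the myosins), so the families do not give a common fibre type. In control mouse 5 at 5 d, Tnnc2 had only 18530 counts beside 249940 of Tnni2 and 405779 of Tnnt3. The reason was not tested. In control mice 1 to 5 at 5 d the share of Tnni1 was 2.77%, 2.65%, 11.4%, 13.4% and 1.64%. Control mice 3 and 4 were high and mouse 5, with the most fibre RNA of all, was low. Across libraries the Spearman correlation was 0.950 between the shares of Tnni1 and Tnnc1 (n = 18), 0.924 between Tnnt1 and Tnnc1 (n = 18) and 0.827 between Tnni1 and Tnnt1 (n = 21). With the share of Myh7 among the myosins it was 0.844 for Tnnt1 (n = 20), 0.752 for Tnnc1 (n = 18) and 0.579 for Tnni1 (n = 20). Without control mouse 5 at 5 d and Jag antibody mouse 6 at 7 d these 6 values ran from 0.536 to 0.938. Both shares in each pair come from the same libraries. At 15 h, Tnni1 took 1.14% to 2.07% in the 3 Jag antibody mice with enough counts and 0.806% and 8.52% in the 2 control mice. With so few mice per group no test was made.

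**Figure D4:**
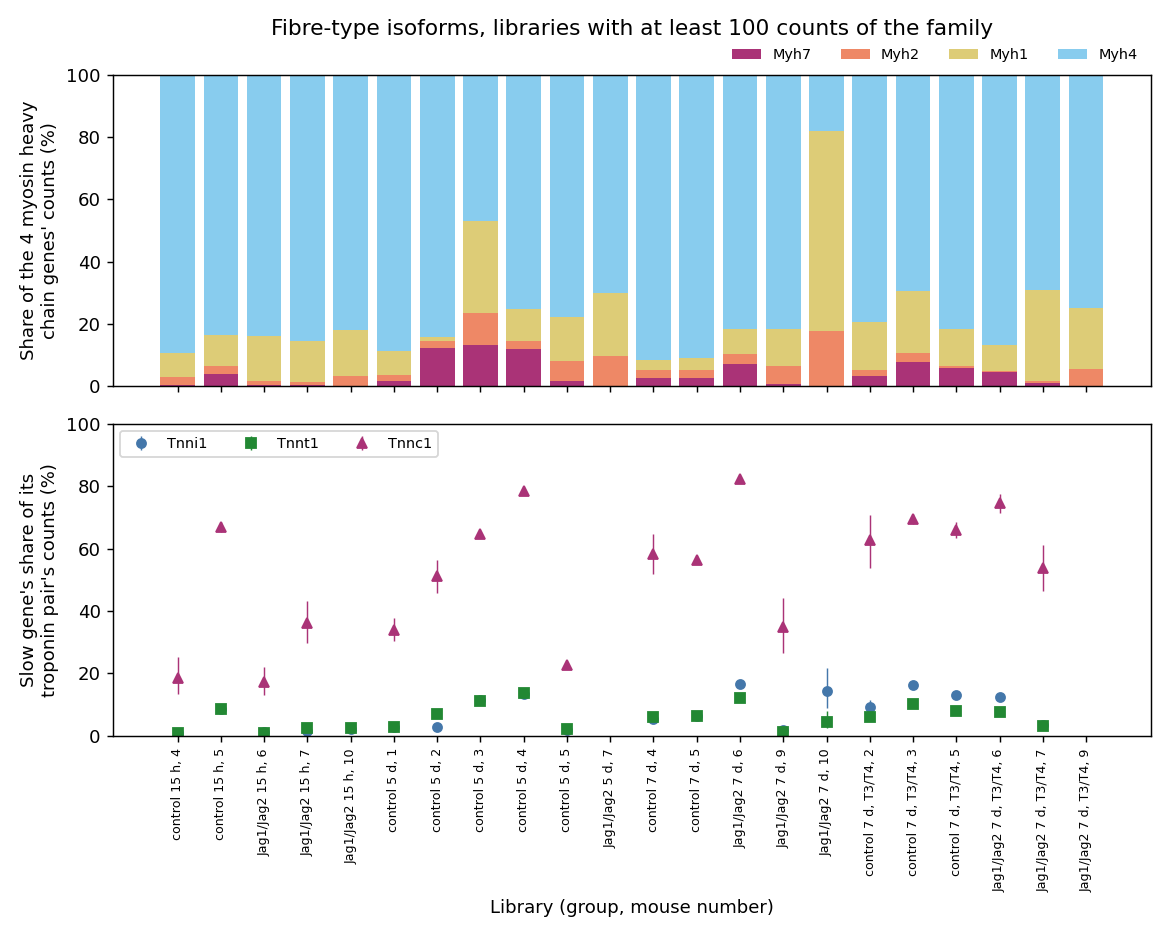
Upper panel, share of the counts of 4 myosin heavy chain genes taken by each (stacked bars, %). Lower panel, share of the slow gene within each troponin pair (points, %, with 95% Wilson intervals). Columns are the 22 libraries with at least 100 myosin counts, and a troponin point is missing where its pair had fewer than 100. Myh4 is the largest segment of every bar except that of Jag antibody mouse 10 at 7 d.

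The balance of long and short fibre genes differed between libraries. Among the members, 10 have exons of at least 5000 bases in all (Myh1, Myh2, Myh4, Myh7, Ttn, Neb, Ryr1, Cacna1s, Ldb3 and Trdn). This length and the set were chosen after the values were seen. In the 20 libraries with at least 10000 member counts, these genes took from 1.25% to 39.7% of the members' counts. The share was lowest in Jag antibody mouse 8 at 7 d (1.25%), control mouse 2 at 5 d (2.48%) and control mouse 5 at 5 d (5.29%). It was 34.6%, 32.1% and 38.2% in control mice 2, 3 and 5 with T3/T4, and 39.7% and 15.1% in Jag antibody mice 6 and 7 with T3/T4. In control mouse 2 at 5 d there were 8668 counts of the short Mylpf (819 bases) for 116 of Ttn, the longest gene, and in control mouse 1 of the same group 8698 for 7201.

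Other genes of the same libraries showed a length trend as well. For 8987 genes that are not members, log2 CPM was taken against its mean over libraries and regressed on log2 exonic length. The slope was -0.53 in control mouse 2 and -0.62 in control mouse 5 at 5 d, and 0.34, 0.28 and 0.32 in the 3 control mice with T3/T4. Over the 20 libraries the Spearman correlation of the slope with the long members' share was 0.738, and it was 0.742 without control mouse 5 at 5 d and Jag antibody mouse 6 at 7 d. Control mouse 4 at 7 d had the lowest slope of all (-0.73) with a long share of 23.0%, and Jag antibody mouse 8 at 7 d had a slope of 0.04 with the lowest share. At 5 d the slope ran from -0.62 to 0.26 in control mice and from -0.33 to 0.26 in Jag antibody mice. The part of this trend in the differences between members was not tested.

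**Figure D5:**
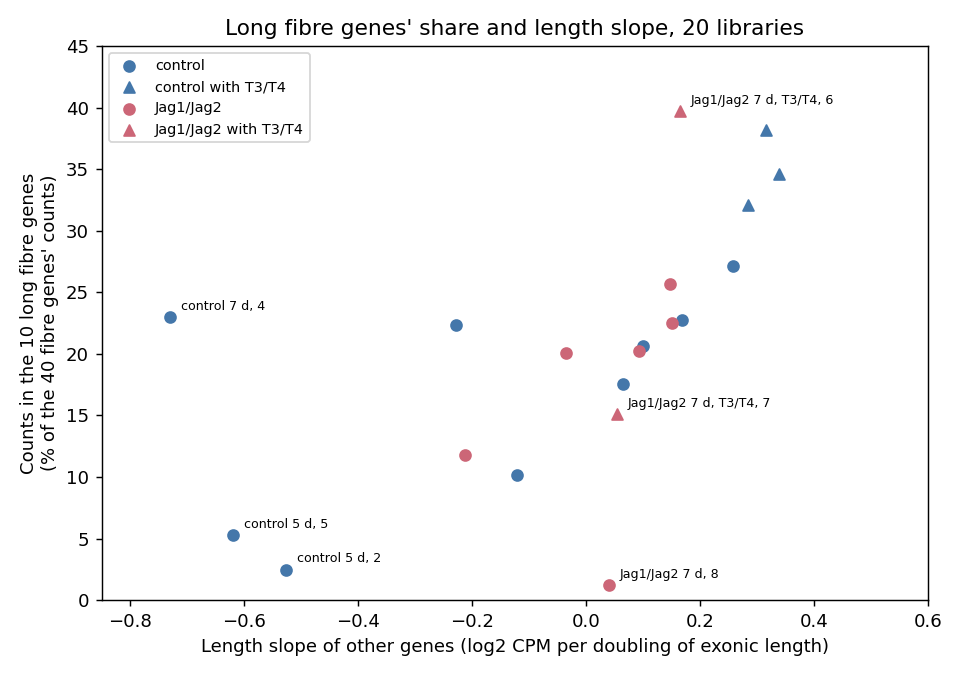
Share of the members' counts taken by the 10 members with at least 5000 exonic bases (vertical axis, %) against the length slope of the other genes (horizontal axis, log2 CPM per doubling of exonic length) in the 20 libraries with at least 10000 member counts. Circles are libraries without and triangles with T3/T4. The 3 control libraries with T3/T4 lie at the upper right, and control mice 2 and 5 at 5 d at the lower left.

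Most of the other fibre genes on a second list were also lower with the Jag antibodies at 5 d. Of 45 such genes (tropomyosins, junctophilins, leiomodins, Xin proteins and the like), 31 fell at 5 d between the antibodies by edgeR and none rose. Their median log2 fold change was -7.80, and 5.93% of all genes tested fell. The 31 became 2 without control mouse 5, 3 with limma voom and 43 with DESeq2. Tpm1 (a tropomyosin) had a log2 fold change of -5.87 (SE 1.37, edgeR adjusted p = 0.00957). Fabp3, a fatty acid carrier that brown fat also makes, was not called, with 0.33 (SE 0.41). The list as a whole still summed to 513 to 594 CPM in the 5 libraries at 15 h whose members took 0.00604% to 0.00747% of counts.

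Genes of muscle precursors and of the nerve contact were tested as well, and their counts of calls also rest on control mouse 5 at 5 d. Of 10 regulators and stem cell genes, 5 passed the filter and all 5 fell at 5 d by edgeR: Myog and Myod1, which switch on the muscle programme, Myf6, Cdh15 and Chodl. Of all genes tested, 5.93% fell. Myog and Myod1 had 0 counts in 22 libraries, and Myf6 and Cdh15 in 19. The filter keeps such genes if they are high in 1 group. The part of tested genes that fell is therefore no result, here and for the lists below. Myog was at 21.4 CPM in control mouse 3 and 12.6 in control mouse 5 at 5 d, and at 0 in all 5 Jag antibody mice. Of 9 genes of the neuromuscular junction, 7 were tested and 5 fell, among them Chrna1, the receptor subunit for acetylcholine, at 27.1, 10.1 and 37.7 CPM in control mice 3 to 5 and 0 in every Jag antibody mouse at 5 d. Chrng, the receptor subunit of immature or denervated fibres, was at 7.11 and 8.62 CPM in control mice 3 and 5 at 5 d and under 0.3 CPM in every other library. Of 6 genes of the developing fibre, 5 were tested and all 5 fell, including Myh3, the embryonic myosin, at 45.5 CPM in control mouse 3 and 12.1 in control mouse 5. The perinatal myosin Myh8 had 26.7 and 19.6 CPM in these mice. Without control mouse 5, 1 of the 5 regulators and stem cell genes, 1 of the 7 junction genes and 4 of the 5 developing fibre genes were called. Control mice 3 and 5 at 5 d thus held transcripts of genes listed for the developing fibre beside the adult ones. The source of these transcripts was not tested. In Jag antibody mouse 6 at 7 d, Myh3 was at 3.98, Myh8 at 1.18 and Chrng at 0 CPM. The summed level of the 6 developing fibre genes was 242 CPM in control mouse 3 and 174 in control mouse 5 at 5 d. It was 83.2 CPM in Jag antibody mouse 6 and 77.0 in control mouse 5 at 7 d, 61.5 in control mouse 3 with T3/T4 and 54.8 in control mouse 4 at 5 d.

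Markers of neighbouring tissues were mixed. The summed level of 6 tendon genes was 12.3, 1.91, 161, 70.7 and 43.7 CPM in control mice 1 to 5 at 5 d and 1.44 to 3.46 CPM in Jag antibody mice. Of the 5 tendon genes tested 3 fell by edgeR (2 without control mouse 5): Thbs4, Scx and Fmod. Of all genes tested, 5.93% fell, and the limit set by the filter applies to these lists too. In the other groups the sum stayed at or under 41.1 CPM. Heart muscle could share Myh7, Tnnc1, Myl2 and Myl3 with slow fibres. Of the genes listed for heart, Nppa, Nppb and Myl7 had at most 2, 1 and 1 counts in any library. The others reached more: Tnni3 16, Myh6 62, Mybpc3 70, Ryr2 258 and Ankrd1 313 counts. A part of heart muscle in these libraries was not tested. Of 8 heart genes 3 were tested and 1 fell at 5 d (0 without control mouse 5), Ankrd1, which stressed skeletal muscle also makes. Genes listed for smooth muscle summed to 64.8 to 409 CPM in control and 83.1 to 225 CPM in Jag antibody mice at 5 d. Of these, 2 of 8 fell (Synpo2 and Smtn), with 0 without control mouse 5. Acta2, Myh11, Tagln, Cnn1, Mylk and Lmod1 were not called. Synpo2 was highest, at 224 CPM, in Jag antibody mouse 6 at 7 d, a library also high in fibre genes.

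Of 12109 genes outside the 40 with a mean log2 CPM of at least 1, those whose level followed the members' mean most closely over the 40 libraries were Rtn2 (Spearman rho 0.955) and Apobec2 (0.952). Xirp2, Pgam2, Tmod4, Nrap, Tpm2, Hrc and Lmod3, all from the list of other fibre genes, had values from 0.942 down to 0.903. Apobec2 is known from striated muscle, and Rtn2 encodes a reticulon of the endoplasmic reticulum. The lowest values belonged to Recql5 (-0.615), Fam206a (-0.605), Srp72 (-0.574), Map3k15 (-0.574) and Senp2 (-0.567), each highest in control mouse 2 at 15 h. That mouse also had the lowest share of fibre genes of all. Without control mouse 5 at 5 d and Jag antibody mouse 6 at 7 d, Rtn2 had 0.948, Apobec2 0.944 and Recql5 -0.568. These correlations share their libraries and are descriptions without a test.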

How the data were processed

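Brown adipose tissue RNA was sequenced in 40 libraries, 5 in each of 8 groups taken from the labels. Trizol and columns were used for the RNA, and reads were single-end of 50 bp, per the labels' protocols. Per the submitters' processing notes, GSNAP and limma were used. Counter, strand setting and genome build are not given in the sources used here. The authors deposited raw counts per Ensembl gene, which were used as deposited. A companion table of normalised values over the same genes and libraries was not used. Symbols matched 52403 of 52636 identifiers. Positions and exonic lengths came from GENCODE M21 and upstream sequences from RefSeq (GRCm38.p6).

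The 40 genes and all gene lists were chosen with earlier results of these data known. All members may be named. Per-library values are given for a set of 19 chosen members and for the 3 per direction with the largest fold among those called. Myl1 and Myl3 at 5 d were added after their values were seen. Of the genes outside the 40, the 10 most and 5 least like the members are named, except 1 that is not reported here.

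The test of the counts was that of edgeR 4.0.16 under R 4.3.3 (filterByExpr, TMM, robust quasi-likelihood fit, 1 model over 40 libraries with a mean per group). Calls are at a Benjamini-Hochberg adjusted p under 0.05 over 17079 genes, and standard errors are those implied by the F statistic. Correlations use log2 CPM with a prior count of 2. Library totals of 12217623 to 36511893 set the precision. In counts simulated for the antibody comparison at 5 d over 17079 genes, 99% of 4-fold and 17% of 2-fold changes were recovered, with 4 false calls. The changed genes, 100 per fold, were drawn from well-counted genes, and the simulated spread was that of the trend over genes. This recovery does not carry over to the fibre genes, whose standard errors at 5 d were 1.42 to 3.81 on the log2 scale. No pair of libraries within a group agreed within sampling noise (lowest chi-square per degree of freedom 17.9 over 80 pairs). Alternatives were DESeq2 1.42.0, limma 3.58.1 voom, RLE factors, scaling without fibre genes, no filter on low counts, only the groups compared, the replicate number as a block, leaving out each mouse, and, chosen after seeing the data, leaving out control mice 2 and 5 at 5 d together or, for correlations, control mouse 5 at 5 d and Jag antibody mouse 6 at 7 d.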

Additional observations from a re-analysis of the deposited data

Results flagged for a closer look

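In 5 of 32 tests of a library measure within a group of 5 mice, 1 mouse stood outside the others by Dixon's ratio (critical value 0.71). Chance gives about 1 in 20 where values are normally distributed. All 5 concern the share of counts in the 40 fibre genes. This share was tested as an untransformed percentage with a 3186-fold range over the libraries. The number of flags can therefore not be set against that rate. The control mice numbered 5 had 2.16% at 15 h (next mouse 0.236%), 19.2% at 5 d (next 4.84%) and 3.32% at 7 d (next 0.192%). The Jag antibody mice numbered 6 had 9.04% at 7 d (next 0.102%) and 0.838% at 7 d with T3/T4 (next 0.162%). Mice that share a number are taken as different mice.

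The antibody difference at 5 d and that at 7 d differed by a test of the interaction for 4 of the 40 genes, Sln, Myl3, Mb and Myl1. Of all genes tested, 1.17% were called in that direction. The count of 4 ran from 0 to 37 when 1 mouse was left out, and it also depended on the method, as given below.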

How the results depend on the processing

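RLE factors and scaling without fibre genes left all 56 tested values of single genes on their side of the threshold with the same sign. Of the counts of called members, the 34 at 5 d became 7 with no filter on low counts, 2 with limma voom, 5 without control mice 2 and 5 together, and 4 to 39 when 1 mouse was left out. From 15 h to 5 d in control mice the 3 became 16 with limma voom, 11 with DESeq2, 0 with only the groups compared, 0 without control mice 2 and 5, and 0 to 18 when 1 mouse was left out. From 5 d to 7 d in control mice the 1 became 2 with RLE factors, scaling without fibre genes or DESeq2, and 0 with no filter, limma voom, only the groups compared or without control mice 2 and 5, and 0 to 3 when 1 mouse was left out. In Jag antibody mice the 0 from 15 h to 5 d became 22 with DESeq2 and 32 with only the groups compared, and the 2 from 5 d to 7 d became 39 with DESeq2, 0 with no filter, limma voom or only the groups compared, and 0 to 4 when 1 mouse was left out. For T3/T4 in Jag antibody mice the 0 became 3 with DESeq2 and 0 to 1 when 1 mouse was left out. For the antibody difference at 5 d against 15 h the 0 became 18 with DESeq2. For that at 5 d against 7 d the 4 became 40 with DESeq2, 0 with no filter, limma voom or only the groups compared, 20 without control mice 2 and 5, and 0 to 37 when 1 mouse was left out. The other counts stayed at 0 throughout. The counts under these alternatives are of members only, without the share over all genes beside them. The cause of these changes was not tested.

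With the replicate number as a block, the counts became 34 (15 h to 5 d) and 8 (5 d to 7 d) in control mice, 2 and 5 in Jag antibody mice, and 2 and 27 for the antibody difference at 5 d against 15 h and against 7 d. Same-numbered mice deviated from their group means with correlations of -0.364 to 0.668, and the mean per comparison ran from 0.0819 to 0.195. Not every mouse correlated best with its own number, so the block was kept as an alternative only. These values do not settle whether same-numbered mice shared a block.

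The log2 fold change of Acta1 changed sign in these cases, none of them called. For antibody at 15 h it was 1.33 with limma voom and 1.40 without control mouse 5. At 7 d it was -4.28 without Jag antibody mouse 6. For T3/T4 in control mice it was 0.70 with limma voom, 3.47 with the replicate block, 3.61 without control mouse 5 at 7 d, and 0.07, 0.07 and 0.11 without mouse 1, 2 or 4 of the hormone group. Without Jag antibody mouse 6 at 7 d it was 1.59 for T3/T4 in Jag antibody mice and 1.80 for the interaction. With 1 mouse left out, the lowest and highest values were -2.52 and 1.40 for antibody at 15 h, -4.28 and 4.94 at 7 d, -1.55 and 3.61 for T3/T4 in control mice, -5.26 and 1.59 for T3/T4 in Jag antibody mice, and -7.37 and 1.80 for the interaction.

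At the depth of these libraries, members with few counts in a whole group give no stable fold, and the minimum of 1000 counts in place of 100 for isoform shares moved no median by more than the spread between libraries.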
